A study of Mus musculus with 12 samples.

Results

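The nuclear receptor superfamily was followed in mouse cortex through 38 of its genes, taken by symbol from the 54232 genes of the count table: the retinoid, fatty acid, oxysterol, vitamin D, xenobiotic and steroid receptors and the orphan receptors, without the thyroid hormone receptors and the Rev-erb and Nr4a genes. All 38 had a row, and 29 held enough counts to be tested. The samples were cortices of 12 C57BL/6J mice aged 12 weeks, from 6 mice homozygous for the Y446C allele of Tbl1xr1, which model Pierpont syndrome, and 6 wild-type mice, with 3 females and 3 males of each genotype. The labels name no treatment, and each library came from 1 mouse. Below, "mutant" means homozygous for this allele, and values of a group of 3 are given in the order of the animal numbers: female mutants 1, 3 and 6, male mutants 7, 10 and 27, female wild types 2, 4 and 5, and male wild types 8, 12 and 13.

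Nuclear receptors are transcription factors with a zinc-finger DNA-binding domain and a pocket that in many members binds a small lipophilic ligand, such as retinoic acid, a fatty acid, an oxysterol or a steroid. Many of them bind DNA as dimers with a retinoid X receptor on a pair of six-base half-sites. Without ligand, several recruit corepressor complexes, of which Tbl1xr1 is a subunit; ligand exchanges these for coactivators. In the brain, the glucocorticoid and mineralocorticoid receptors read out stress hormones, COUP-TF and ROR proteins pattern cortical areas and layers, and the liver X receptors govern cholesterol handling.

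Depth per library was 21238427 to 32669138 gene counts, with a mitochondrial share of 5.23% to 10.4%, except in female mutant 3, which had 3748515 counts and a share of 31.6%. Results are therefore given with and without female mutant 3. Levels are in CPM, counts per 1e+06 on scaled library totals, and a gene with no count could be present below 0.0860 to 0.136 CPM in 11 libraries and below 1.16 CPM in female mutant 3. These limits stand for 3 counts and cover counting error only. Tbl1xr1 itself stood at 93.5 ± 2.70 CPM in mutants and 105 ± 7.03 CPM in wild types (SD, n = 6 each), a log2 fold change of -0.17 (SE 0.07), with an adjusted p = 0.950 in edgeR's quasi-likelihood test. The allele changes 1 residue, so its level does not check the genotype labels. The summed level of 12 markers of cortical excitatory neurons, none of them at 0, was 1397 to 1811 CPM in mutants and 1549 to 1870 CPM in wild types. Marker lists of other regions were present too, so these sums do not show how cleanly the cortex was dissected. Across libraries the striatal list summed to 338 to 2331 CPM and the thalamic list to 180 to 723 CPM. The hippocampal list summed to 510 to 893 CPM and the choroid plexus list to 442 to 599 CPM. Female mutant 3 held the highest thalamic and hippocampal sums, and without it the highest were 614 and 674 CPM.

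On the length-corrected scale (TPM, transcripts per 1e+06 from merged exon lengths, mean of 12 libraries), Nr3c1, the glucocorticoid receptor, was the most abundant member at 79.8 TPM. It was followed by Rora, a constitutively active orphan receptor, at 58.6 TPM, Nr2c2, the testicular receptor TR4, at 45.7 TPM, Nr3c2, the mineralocorticoid receptor, at 41.3 TPM and Nr2f1, the area-patterning factor COUP-TFI, at 38.9 TPM. Esrrg at 35.3 TPM, Rxrb at 29.8 TPM and Nr1h2, the liver X receptor beta, at 25.2 TPM came next. Among the sex steroid receptors, Pgr, the progesterone receptor, stood at 17.6 TPM, whereas the oestrogen receptors Esr1 and Esr2 stood at 1.40 and 0.459 TPM. The lowest tested member was Vdr, the vitamin D receptor, at 0.311 TPM. In the 11 libraries the 38 genes summed to 517 to 642 TPM, against 282 TPM in female mutant 3.

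**Figure D1:**
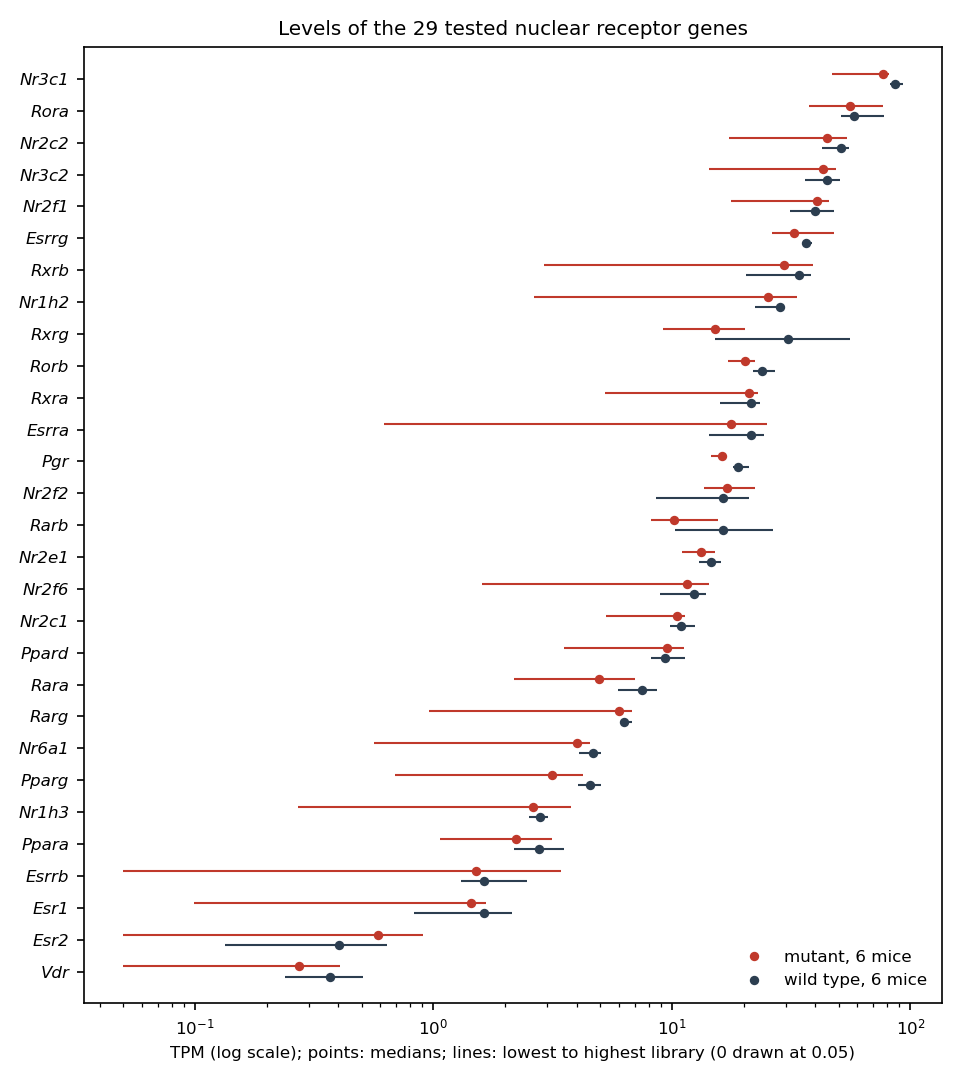
Level of each of the 29 tested receptor genes in TPM on a log axis, with mutants (red) above wild types (dark blue) in each row; points are medians of 6 mice and lines run from the lowest to the highest library, with libraries at 0 drawn at 0.05 TPM. The genes run from Nr3c1 at 79.8 TPM to Vdr at 0.311 TPM, and many mutant lines reach far to the left, where female mutant 3 lies.

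The 9 members that were not tested are receptors known from liver, gut, retina, adrenal or gonad. Nr5a1, the adrenal and gonadal steroidogenic factor SF-1, had 24 counts over all libraries, and Nr5a2, its liver relative LRH-1, had 31. The bile acid receptor Nr1h4 had 30 counts, the xenobiotic receptors Nr1i3 and Nr1i2 had 36 and 2, and the DNA-binding-deficient receptors Nr0b1 and Nr0b2 had 8 each. Hnf4a, a hepatocyte factor, had 1 count, and Nr2e3, a photoreceptor factor, had 0. At these counts a difference between genotypes was not detectable. Exons of 9 of the 38 members (Rarb, Rora, Nr1i3, Nr2c2, Nr2f1, Nr2f2, Nr2f6, Esrra and Nr3c2) overlap exons of a gene on the other strand. Whether counting used strand is not stated, so counts of these 9 can include reads of the other gene.

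Members differed in how steady they were between mice. Over the 11 libraries the coefficient of variation of CPM was 3.25% for Nr2c2, 7.03% for the retinoic acid receptor Rarg, 7.95% for Nr1h2 and 7.99% for Nr3c1. It was 60.0% for Rxrg and 39.6% for Rarb, a retinoid X receptor and a retinoic acid receptor that striatal neurons are known to express. Esr2 and Vdr, with 124 and 137 counts over all libraries, varied by 39.4% and 30.0%, and their counts are low enough that counting error adds to the spread.

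The central comparison asked how the receptor genes differ between mutant and wild-type cortex. None of the 29 tested members passed it: 0 were called at an adjusted p under 0.05 by edgeR's quasi-likelihood test, by DESeq2 or by limma-voom, where edgeR called 0.00555% of all 18016 tested genes. At an unadjusted p under 0.05, 3 of 29 members (10.3%) stood out, against 3.96% of all genes, and each of these 3 was lower in mutants, against 2.45% of all genes. They were Rara, the retinoic acid receptor alpha, with a log2 fold change of -0.43, Pparg, the fatty acid receptor that drives fat cell formation, with -0.45, and Rxrg with -0.93. DESeq2 and limma-voom each also gave 3 members at an unadjusted p under 0.05, against 5.56% of all genes in DESeq2 and 4.34% in limma-voom. Across the 29 members, 19 had a log2 fold change below 0, against 52.4% of all genes, and the median was -0.04, against -0.01 over all genes. When libraries were scaled by their totals instead of TMM, 25 of the 29 were below 0 and the median was -0.14, while that of all genes was -0.08. Without female mutant 3, 18 were below 0, edgeR called 0 members, against 0.0108% of all genes, and 5 members had an unadjusted p under 0.05, against 7.46% of all genes. Leaving out that library also turned the direction of 7 members, Rora, Nr2e1, Rxrb, Esrrg, Esr1, Nr2f6 and Nr3c2.

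**Figure D2:**
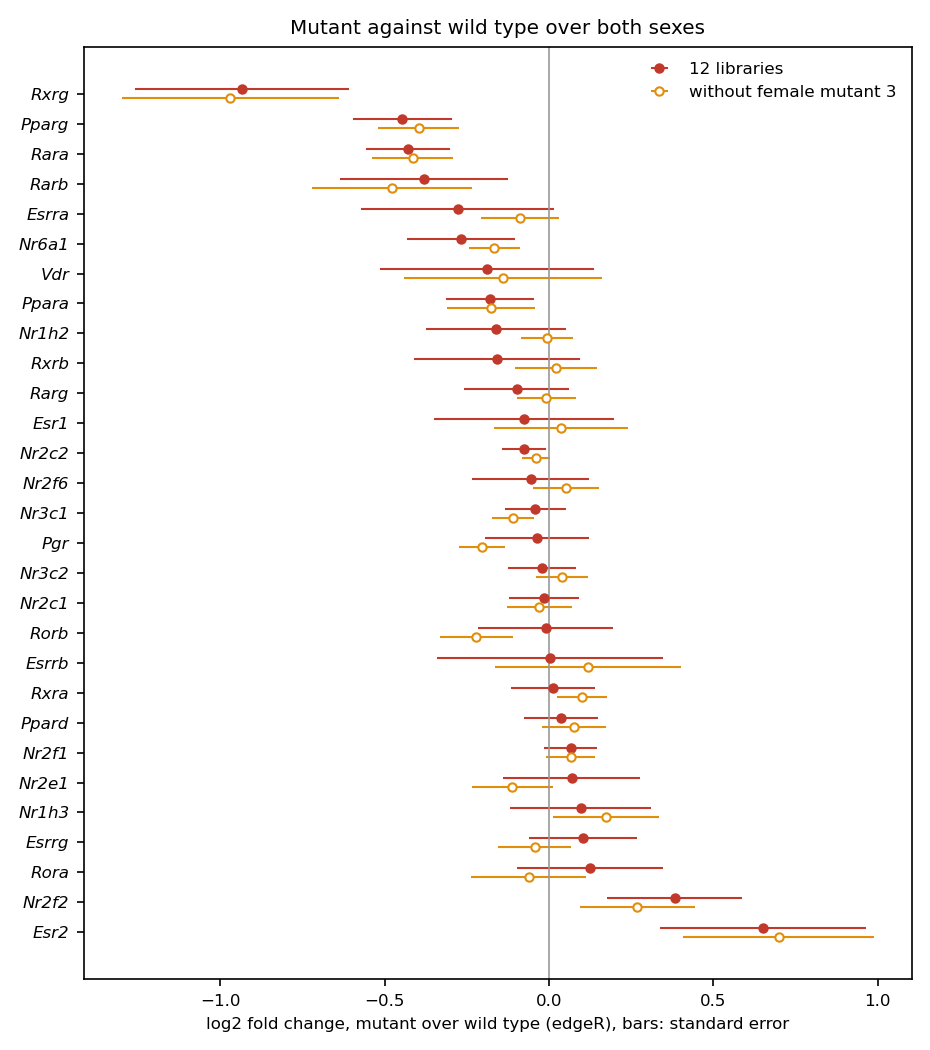
Log2 fold change of mutants over wild types for the 29 tested receptor genes, with 12 libraries (filled red) and without female mutant 3 (open orange); bars are standard errors from edgeR. Rxrg at -0.93, Pparg at -0.45 and Rara at -0.43 lie farthest to the left relative to their errors, and Rorb, Esrra, Rora, Nr2e1 and Rxrb move most when the 1 library is left out.

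Of the retinoic acid receptors, which bind all-trans retinoic acid, Rara (ENSMUSG00000037992, chr11:98927818-98974942, GRCm38) gave the smallest p of the family. It stood at 4.91, 5.42 and 5.89 CPM in female mutants and at 5.59, 6.88 and 6.80 CPM in male mutants, against 7.58, 8.58 and 9.10 CPM in female wild types and 7.81, 8.76 and 6.25 CPM in male wild types. The female groups did not overlap, whereas male wild type 13 lay below 2 of the 3 male mutants. Here and for the receptors below, the share of all genes whose groups of 3 lay apart within a sex is not given. Such separations within a sex are therefore description only. The means were 5.91 ± 0.784 CPM in mutants and 8.01 ± 1.04 CPM in wild types (SD, n = 6 each). The log2 fold change of -0.43 (SE 0.13) had an unadjusted p = 0.0054 in edgeR's test and an adjusted p = 0.950, and without female mutant 3 it was -0.41 (SE 0.12) with an adjusted p = 0.463. Over 24 alternative settings the log2 fold change of Rara ran from -0.51 to -0.36 and its adjusted p from 0.204 to 0.9998. The third receptor of this class, Rarg, stood at 6.12 to 7.84 CPM in 11 libraries and at 2.32 CPM in female mutant 3, and its log2 fold change was -0.10 (SE 0.16).

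Rarb (ENSMUSG00000017491, chr14:16430839-16819156), the beta receptor and itself a classical target of retinoic acid, was spread widely in both genotypes. Its levels were 22.2, 28.6 and 14.0 CPM in female mutants and 19.3, 9.72 and 13.9 CPM in male mutants, against 15.9, 21.3 and 37.9 CPM in female wild types and 22.3, 24.2 and 13.04 CPM in male wild types. Mutants and wild types overlapped over most of this range. The log2 fold change was -0.38 (SE 0.26) with an unadjusted p = 0.16 in edgeR's test, and -0.48 (SE 0.24) without female mutant 3.

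The retinoid X receptors are the shared dimer partners of retinoic acid, fatty acid, oxysterol and vitamin D receptors. Rxrg (ENSMUSG00000015843, chr1:167598384-167639623) stood at 12.6, 12.8 and 7.81 CPM in female mutants and 10.5, 4.76 and 10.3 CPM in male mutants, against 9.87, 19.4 and 34.6 CPM in female wild types and 15.9, 22.7 and 8.38 CPM in male wild types. Wild types 2 and 13 lay within the range of the mutants, and the other 4 wild types lay above every mutant. The means were 9.80 ± 3.06 CPM in mutants and 18.5 ± 9.61 CPM in wild types (SD, n = 6 each), and the log2 fold change was -0.93 (SE 0.33), with an unadjusted p = 0.013 in edgeR's test and an adjusted p = 0.950. Rxra and Rxrb, the alpha and beta forms, had log2 fold changes of 0.01 (SE 0.13) and -0.16 (SE 0.25), and of 0.10 and 0.02 without female mutant 3. Rxrb was at 31.1, 6.58 and 26.0 CPM in female mutants and 30.8, 34.9 and 37.9 CPM in male mutants, against 32.0, 35.9 and 33.9 CPM in female wild types and 22.0, 33.4 and 32.6 CPM in male wild types. Its 2 low libraries were female mutant 3 and male wild type 8.

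**Figure D3:**
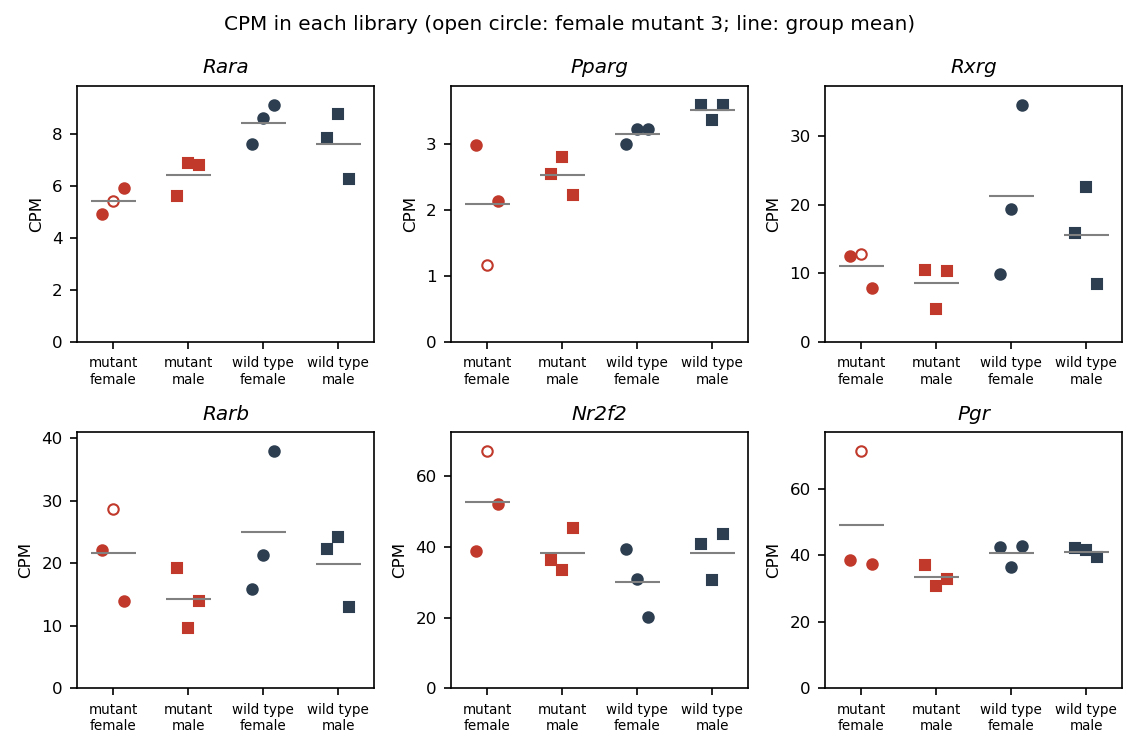
CPM of 6 receptor genes in every library, with mutant females and males left of wild-type females and males; lines are group means and the open circle is female mutant 3. All 6 mutants lie below the 6 wild types for Pparg, while for Rxrg and Rarb the wild types alone span 8.38 to 34.6 CPM and 13.04 to 37.9 CPM.

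Promoter sequences of the receptors on which these comparisons turn are shown because many nuclear receptors are known to bind such half-sites, Rarb's own promoter among them. RefSeq start sites (GRCm38.p6) gave 56 windows, of 250 bases before to 50 after the start, for 36 of the 38 members; Nr3c1 and Nr5a1 had no entry. The half-sites searched on either strand were the consensus AGGTCA together with the variants written AGTTCA as well as GGGTCA and, last, also GGTTCA, alone and as direct repeats with a spacer of 1 to 5 bases. The 250 bases before the start are printed 5′ to 3′ on the gene's strand, with half-sites in capitals, and for a gene with several starts the window with the most half-sites is given.
Rarb, chr14:16575477-16575726, minus strand: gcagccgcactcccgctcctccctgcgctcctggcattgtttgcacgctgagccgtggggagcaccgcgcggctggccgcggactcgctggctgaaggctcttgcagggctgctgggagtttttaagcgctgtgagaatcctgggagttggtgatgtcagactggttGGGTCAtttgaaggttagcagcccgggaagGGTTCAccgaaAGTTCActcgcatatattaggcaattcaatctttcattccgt
Rara, chr11:98939461-98939710, plus strand: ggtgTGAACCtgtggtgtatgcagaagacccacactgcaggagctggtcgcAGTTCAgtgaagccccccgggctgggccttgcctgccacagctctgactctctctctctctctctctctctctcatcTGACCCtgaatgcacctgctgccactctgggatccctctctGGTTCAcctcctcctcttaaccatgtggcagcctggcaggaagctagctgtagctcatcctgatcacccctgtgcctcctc
Pparg, chr6:115362099-115362348, plus strand: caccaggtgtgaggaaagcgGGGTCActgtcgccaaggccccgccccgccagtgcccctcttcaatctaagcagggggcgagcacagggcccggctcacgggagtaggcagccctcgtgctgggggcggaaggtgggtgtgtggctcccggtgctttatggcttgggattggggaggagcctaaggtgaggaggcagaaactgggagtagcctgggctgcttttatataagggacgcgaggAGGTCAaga
Rxrg, chr1:167618015-167618264, plus strand: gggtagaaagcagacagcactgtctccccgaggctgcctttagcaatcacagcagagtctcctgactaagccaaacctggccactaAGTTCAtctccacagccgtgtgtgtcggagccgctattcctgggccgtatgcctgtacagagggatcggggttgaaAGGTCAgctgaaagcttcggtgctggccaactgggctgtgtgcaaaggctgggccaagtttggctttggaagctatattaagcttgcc
A half-site was found in 23 of the members' 56 windows (41.1%), against 43.7% of the 32851 windows of 27025 genes. A direct repeat was found in 1 of the 56 (1.79%), against 0.700% of all windows. That one was in Rarb, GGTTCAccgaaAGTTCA at bases -53 to -37 from the start, a repeat spaced by 5 bases, which is known as the retinoic acid response element of this promoter; 32 of the 32851 windows (0.0974%) held a repeat with that spacing. A match of letters describes the window and shows no binding. The printed window of Rara held 4 half-sites, those of Pparg and Rxrg 2 each, and none of the 3 held a direct repeat.

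Among the fatty acid receptors, Pparg (ENSMUSG00000000440, chr6:115360951-115490399) was the only tested member whose genotypes did not overlap. It stood at 2.99, 1.16 and 2.14 CPM in female mutants and 2.55, 2.81 and 2.23 CPM in male mutants, against 3.00, 3.23 and 3.23 CPM in female wild types and 3.59, 3.36 and 3.59 CPM in male wild types. The nearest pair were female mutant 1 at 2.99 CPM and female wild type 2 at 3.00 CPM, and the 1.16 CPM of female mutant 3 rested on 3 counts. Pparg was thus the 1 of 29 members without overlap and lower in mutants, against 0.294% of all genes, and 0.144% of all genes were without overlap and higher. The means were 2.31 ± 0.651 CPM in mutants and 3.34 ± 0.229 CPM in wild types (SD, n = 6 each). The log2 fold change of -0.45 (SE 0.15) had an unadjusted p = 0.011 and an adjusted p = 0.950 in edgeR's test, and without female mutant 3 it was -0.40 (SE 0.12) with an adjusted p = 0.488. The other 2 receptors of the class differed less: Ppara, the alpha receptor of fatty acid oxidation, had a log2 fold change of -0.18 (SE 0.13) and the widely expressed Ppard one of 0.04 (SE 0.11).

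The liver X receptors sense oxysterols and raise cholesterol efflux. Nr1h2, the beta form, was at 21.1, 5.03 and 19.7 CPM in female mutants and 23.9, 25.2 and 24.0 CPM in male mutants, against 23.0, 23.5 and 24.2 CPM in female wild types and 20.2, 21.7 and 24.0 CPM in male wild types. All 3 female mutants lay below the 3 female wild types, and the lowest male mutant, at 23.9 CPM, lay just under the highest male wild type, at 24.0 CPM. Its log2 fold change over both sexes was -0.16 (SE 0.21), and -0.01 (SE 0.08) without female mutant 3. Nr1h3, the alpha form, stood at 1.502 to 2.55 CPM in 11 libraries and at 0.387 CPM in female mutant 3, with a log2 fold change of 0.10 (SE 0.21). Vdr had at most 20 counts in a library, and its levels of 0.589, 0 and 0.620 CPM in female mutants and 0.318, 0.315 and 0.422 CPM in male mutants stood against 0.429, 0.319 and 0.364 CPM in female wild types and 0.636, 0.665 and 0.621 CPM in male wild types. The 3 male mutants lay below the 3 male wild types, and the 2 female mutants with a count lay above the 3 female wild types.

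The ROR receptors and the orphan receptors of the NR2 class act in cortical development. Rora was at 223, 363 and 154 CPM in female mutants and 224, 225 and 124 CPM in male mutants, against 218, 194 and 184 CPM in female wild types and 274, 161 and 161 CPM in male wild types. Its highest CPM was in female mutant 3, where its TPM lay within the range of the other libraries. Rorb, which marks neurons of layer 4, was at 65.1, 128 and 60.3 CPM in female mutants and 64.2, 43.5 and 48.0 CPM in male mutants, against 59.9, 64.8 and 65.6 CPM in female wild types and 80.6, 63.6 and 59.8 CPM in male wild types. The 2 lowest of the 12 were male mutants 10 and 27. Their log2 fold changes were 0.12 (SE 0.22) for Rora and -0.01 (SE 0.21) for Rorb over both sexes, and -0.06 for Rora and -0.22 (SE 0.11) for Rorb without female mutant 3.

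Nr2f1 was at 49.4, 51.1 and 59.2 CPM in female mutants and 51.3, 52.4 and 54.4 CPM in male mutants, against 48.0, 48.0 and 42.9 CPM in female wild types and 54.4, 52.8 and 58.7 CPM in male wild types. The female mutants all lay above the female wild types, and the males overlapped. Nr2f2, the related COUP-TFII of interneurons and blood vessels, was at 38.8, 66.9 and 52.0 CPM in female mutants and 36.2, 33.6 and 45.3 CPM in male mutants, against 39.4, 30.8 and 20.1 CPM in female wild types and 40.9, 30.6 and 43.6 CPM in male wild types. Its extremes were female mutant 3 above and female wild type 5 below, and its log2 fold change was 0.38 (SE 0.21) with 12 libraries and 0.27 (SE 0.17) without female mutant 3. The third COUP-TF gene, Nr2f6, had a log2 fold change of -0.06 (SE 0.18), and of 0.05 without female mutant 3. Nr2e1, the stem cell factor Tlx, had one of 0.07 (SE 0.21), which was -0.11 without female mutant 3, where its highest level, 29.4 CPM, lay.

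Nr2c2 was the steadiest member, at 173, 147 and 173 CPM in female mutants and 178, 182 and 182 CPM in male mutants, against 183, 179 and 173 CPM in female wild types and 179, 191 and 186 CPM in male wild types. Apart from female mutant 3, its libraries lay between 173 and 191 CPM. Its partner Nr2c1, the testicular receptor TR2, was at 14.1, 13.9 and 13.6 CPM in female mutants and 12.1, 11.8 and 10.5 CPM in male mutants, against 11.7, 12.1 and 12.2 CPM in female wild types and 15.6, 12.8 and 12.1 CPM in male wild types. Female mutants were above all female wild types, and the log2 fold change over both sexes was -0.02 (SE 0.11). Nr6a1, the germ cell nuclear factor, was at 10.6, 3.48 and 11.5 CPM in female mutants and 11.4, 9.89 and 12.4 CPM in male mutants, against 11.3, 12.0 and 12.0 CPM in female wild types and 13.6, 12.7 and 13.2 CPM in male wild types. Male mutants lay below male wild types, and the log2 fold change over both sexes was -0.27 (SE 0.16).

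Of the steroid receptors, the 2 corticoid receptors had log2 fold changes near 0. Nr3c1 was at 153, 205 and 161 CPM in female mutants and 159.9, 141 and 148 CPM in male mutants, against 163, 151 and 186 CPM in female wild types and 174, 166 and 152 CPM in male wild types, a log2 fold change of -0.04 (SE 0.09). Nr3c2 was at 61.3, 52.6 and 83.2 CPM in female mutants and 72.2, 71.2 and 70.9 CPM in male mutants, against 69.3, 77.7 and 63.3 CPM in female wild types and 67.2, 66.7 and 75.3 CPM in male wild types, a log2 fold change of -0.02 (SE 0.10). Without female mutant 3 these were -0.11 for Nr3c1 and 0.04 for Nr3c2. Both overlapped between the genotypes, with the highest Nr3c1 and the lowest Nr3c2 CPM in female mutant 3. In TPM that library was the lowest for both, at 46.8 TPM for Nr3c1 and 14.3 TPM for Nr3c2. Pgr was at 38.5, 71.2 and 37.5 CPM in female mutants and 37.1, 30.9 and 32.8 CPM in male mutants, against 42.6, 36.4 and 42.8 CPM in female wild types and 42.1, 41.6 and 39.5 CPM in male wild types. Leaving out female mutant 3, at 71.2 CPM, moved its log2 fold change to -0.20 (SE 0.07, unadjusted p = 0.012 and adjusted p = 0.520 in edgeR's test), against -0.04 (SE 0.16) with 12 libraries. Esr2, the oestrogen receptor beta, was at 0.353, 0 and 0.589 CPM in female mutants and 0.455, 0.688 and 0.576 CPM in male mutants, against 0.322, 0.239 and 0.121 CPM in female wild types and 0.363, 0.498 and 0.399 CPM in male wild types. Its log2 fold change was 0.65 (SE 0.31) on at most 24 counts a library, with an unadjusted p = 0.059 in edgeR's test, and 0.70 (SE 0.29) with an unadjusted p = 0.032 without female mutant 3, where it had no count. Esr1, the oestrogen receptor alpha, had a log2 fold change of -0.08 (SE 0.27), and of 0.04 without female mutant 3.

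The oestrogen-related receptors bind no oestrogen and drive genes of mitochondrial metabolism. Esrra was at 19.1, 1.55 and 16.8 CPM in female mutants and 24.0, 24.6 and 21.3 CPM in male mutants, against 22.6, 25.3 and 23.9 CPM in female wild types and 16.9, 23.1 and 22.2 CPM in male wild types. Female mutant 3 held 4 counts of it, and male wild type 8 was the lowest of the wild types. Its log2 fold change was -0.28 (SE 0.29), and -0.09 (SE 0.12) without female mutant 3. Esrrg, the brain-enriched gamma form, had a log2 fold change of 0.10 (SE 0.16), and of -0.04 without female mutant 3. Esrrb, the beta form, had one of 0.003 (SE 0.34) with no count in female mutant 3, and of 0.12 without that library.

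Rarb and Rxrg ran with markers of striatal neurons across the libraries of both genotypes. All 12 of 12 striatal markers, among them the dopamine receptors Drd1 and Drd2 and the signalling protein Ppp1r1b, had a log2 fold change below 0 in mutants, with a median of -0.77, and 0 of them were called in edgeR's test. Their summed level ran from 338 to 1508 CPM (median 763) in mutants and from 652 to 2331 CPM (median 1312) in wild types, and none of the 12 was at 0. Without female mutant 3 the mutants ran from 338 to 1090 CPM. Against the mean log2 CPM of these markers over the 12 libraries, Rarb had Pearson's r = 0.958 and Spearman's rho = 0.937, and Rxrg had r = 0.970 and rho = 0.979. In 2 such relations, permutation tests gave an unadjusted p = 1e-05 for both r values, the smallest that the 100000 resamples can give, and p = 3e-05 and 1e-05 for the rho values of Rarb and Rxrg; Benjamini-Hochberg adjustment gave 1e-05 for both r values and 3e-05 and 2e-05 for the rho values.

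The relation held without the 2 libraries farthest from the median, female wild type 5 and male mutant 10, where r was 0.904 for Rarb and 0.926 for Rxrg (permutation test, p = 0.00081 and 0.0002, two-sided). Within the 6 mutants r was 0.952 for Rarb and 0.975 for Rxrg (exact permutation test, p = 0.0028 and 0.0014), and within the 6 wild types it was 0.991 and 0.977 (exact permutation test, p = 0.0014 and 0.0056). With the marker mean as a covariate in edgeR's fit, the log2 fold change of Rxrg was -0.17 (SE 0.14, unadjusted p = 0.25), against -0.93 without the covariate, and that of Rarb was 0.18 (SE 0.11, unadjusted p = 0.13), against -0.38. Both genes run closely with this mean, and all its markers had a log2 fold change below 0. The move of their fold changes follows from that relation and is no separate test, and its cause was not tested. The same covariate left Rara at -0.40 (SE 0.16) and Pparg at -0.45 (SE 0.18), with unadjusted p = 0.030 for each. In bulk tissue, fewer cells of a type and less RNA per cell cannot be told apart, and how the cortex was parted from the striatum beneath it is not given in the sources used here.

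**Figure D4:**
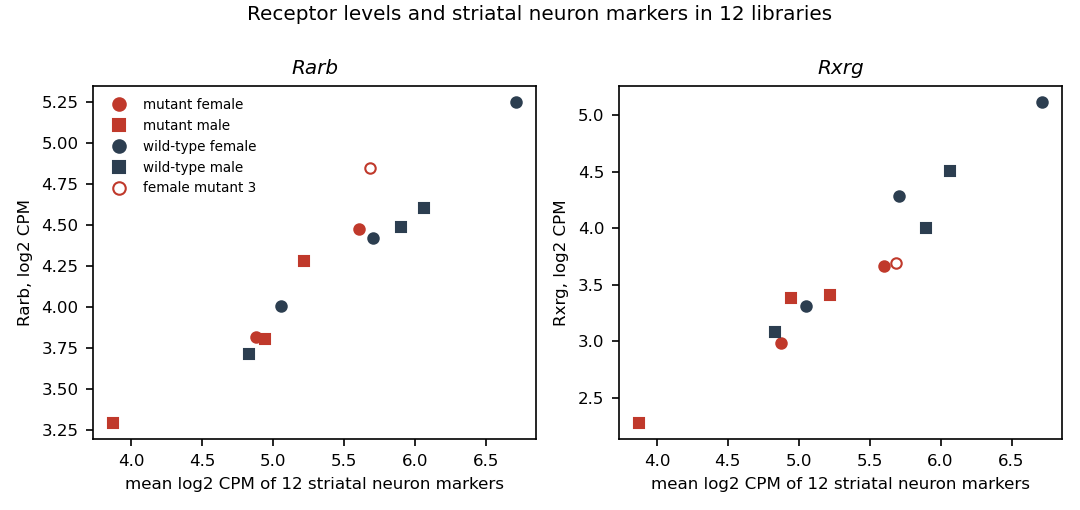
Log2 CPM of Rarb (left) and Rxrg (right) against the mean log2 CPM of 12 striatal neuron markers, 1 point per library, coloured by genotype and shaped by sex. Points of both genotypes lie along 1 rising band, with r = 0.958 for Rarb and r = 0.970 for Rxrg.

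Female mutant 3 lay outside the range of the other libraries for most members. There, on the CPM scale, 15 of the 29 tested members lay below all 11 other libraries, 7 lay above all of them and 7 lay within their range. Over all tested genes the shares on that scale were 46.1% below and 33.2% above. Its departures ran with the GC content of the transcript. Members with under 45% GC, such as Rora, Rorb and Esrrg, had a median difference from the mean of the other libraries of 0.84 on the log2 scale (5 genes), those from 45% to 50% one of -0.29 (7 genes), those from 50% to 55% one of -1.23 (9 genes) and those of 55% or more, such as Nr1h2, Rxrb and Nr2f6, one of -1.57 (8 genes). Over all tested genes the medians in these 4 ranges were 0.53, 0.03, -0.55 and -1.25. Spearman's correlation of the difference with GC content was -0.55 across the 29 members and -0.52 across 17995 genes, a description within 1 library in which all genes share its depth. Of the other libraries, male wild type 8 had the steepest such gradient in the same direction, and it is the low wild type for Rxrb and Esrra. The gradient is the median difference at 55% GC or more minus that under 45%. It separated the genotypes within each sex, in opposite directions. Female mutants had -0.07, -1.79 and -0.12, against -0.06, 0.15 and 0.02 in female wild types. Male mutants had 0.04, 0.13 and 0.15, against -0.26, 0.03 and -0.02 in male wild types. Mitochondrial shares were 8.97% or more in female mutants and 7.89% or less in female wild types, and overlapped in males. With the GC gradient of each library as a covariate, an alternative chosen after the data were seen, Rara stood at -0.41 (SE 0.12), Pparg at -0.43 (SE 0.13) and Rxrg at -0.96 (SE 0.33), and 7 members had an unadjusted p under 0.05, against 9.54% of all genes, while 0 were called in edgeR's test.

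**Figure D5:**
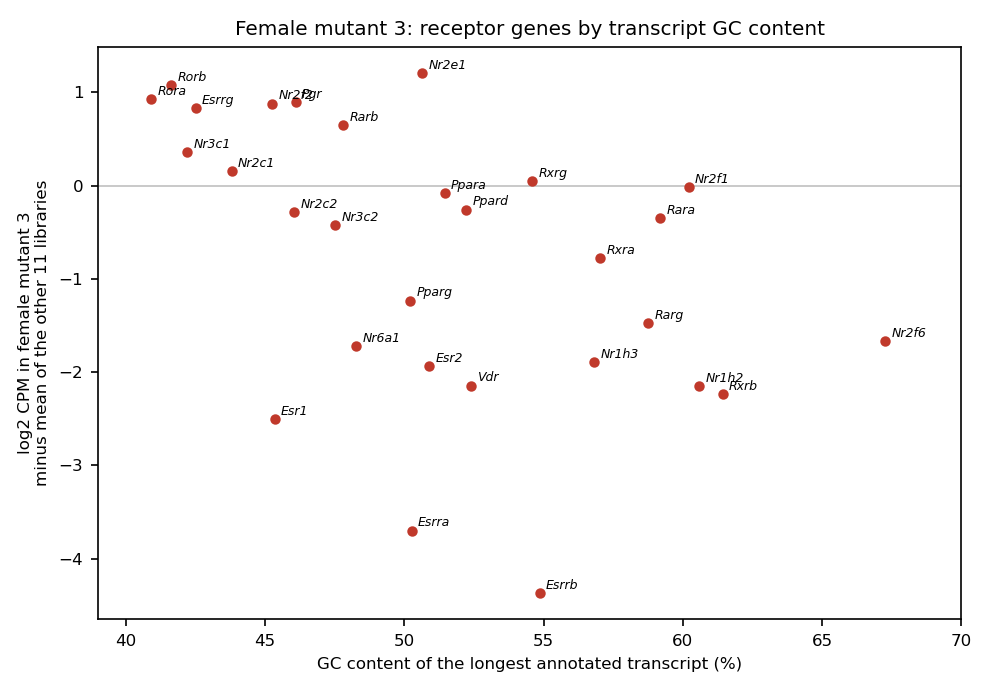
Difference in log2 CPM between female mutant 3 and the mean of the other 11 libraries for each tested receptor gene, against the GC content of its longest annotated transcript. AT-rich Rora, Rorb and Esrrg lie above 0 and most genes of 50% GC or more lie below, with medians of 0.84 under 45% GC and -1.57 at 55% or more.

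Within each sex, again no member was called. The GC gradient separated the genotypes within each sex even without female mutant 3, so leaving out that library does not remove it from these comparisons. Among females, where 0% of all genes were called by edgeR, 2 of 29 members had an unadjusted p under 0.05, against 11.8% of all genes: Rara at a log2 fold change of -0.64 (SE 0.17, adjusted p = 0.418) and Nr2f2 at 0.78 (SE 0.26, adjusted p = 0.418). Without female mutant 3 these were 6 of 29, against 9.41% of all genes, with Rara at -0.64 (SE 0.17), Esrra at -0.42 (SE 0.13), Nr1h2 at -0.21 (SE 0.09), Nr2f1 at 0.23 (SE 0.09), Nr2f2 at 0.59 (SE 0.24) and Esr2 at 1.04 (SE 0.45). Among males, where 0% of all genes were called, 2 members had an unadjusted p under 0.05, against 2.78% of all genes: Pparg at -0.47 (SE 0.21) and Vdr at -0.86 (SE 0.37), each with an adjusted p of 0.9999 in edgeR's test. Without female mutant 3, whose spread is pooled into this fit, there were 5, against 8.43% of all genes, and still 0 calls, against 0.00542% of all genes, with Pgr at -0.29 (SE 0.09), Rorb at -0.39 (SE 0.14) and Nr6a1 at -0.23 (SE 0.10) besides.

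The difference between the sexes in the effect of genotype was tested directly as an interaction, females minus males. No member and 0% of all genes were called by edgeR, and 2 members had an unadjusted p under 0.05, against 7.67% of all genes: Vdr at 1.42 (SE 0.54) and Nr2c1 at 0.44 (SE 0.18), each with an adjusted p = 0.555. Without female mutant 3 there were 6 of 29, against 10.6% of all genes, with Nr1h2 at -0.36 (SE 0.12), Esrra at -0.59 (SE 0.18), Rxrb at -0.49 (SE 0.22) and Nr2f1 at 0.30 (SE 0.13) added. With the GC gradient as a covariate and all 12 libraries, the interactions of Nr1h2, Esrra and Rxrb were -0.03, -0.04 and -0.06 on the log2 scale, and those of Vdr, Nr2c1 and Nr2f1 were 1.95, 0.40 and 0.32. With that covariate and without female mutant 3, they were -0.22, -0.22 and 0.09 for Nr1h2, Esrra and Rxrb, and 1.48, 0.19 and 0.32 for Vdr, Nr2c1 and Nr2f1. Between females and males over both genotypes, edgeR called 7 genes, 0.0389% of those tested, and no receptor; 0 members had an unadjusted p under 0.05, against 1.77% of all genes, although the family holds the sex steroid receptors. Esr2 came nearest, at a log2 fold change of females over males of -0.61 (SE 0.32, unadjusted p = 0.076 in edgeR's test).

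The genes that work with these receptors were followed as lists, each described by its counts over both sexes; edgeR called 0 genes of any of them. With scaling by library totals, the medians of the 10 lists lay lower by 0.06 to 0.10 on the log2 scale, as did that of all genes. Of the 6 genes of the core of the corepressor complex that holds Tbl1xr1, 2 were above 0 and 4 below, and Tbl1xr1 had the smallest unadjusted p, 0.025 in edgeR's test. Without female mutant 3, 2 were again above and 4 below 0, and Tbl1xr1 was at -0.18. There, 2 of the 6 had an unadjusted p under 0.05 in edgeR's test, both lower in mutants, against 7.46% of all genes in either direction. The 14 other corepressors had 9 above and 5 below 0 with a median of 0.04, which was -0.05 with scaling by library totals, where 4 were above and 10 below, and 0.007 without female mutant 3. Of these, Bcor, a BCL6 corepressor, was at -0.19 (SE 0.11) and Ctbp2, a C-terminal binding protein, at 0.20 (SE 0.15). The 16 coactivators divided 8 to 8 with a median of -0.005, with 10 above and 6 below 0 without female mutant 3 and 5 above and 11 below with library totals, and none had an unadjusted p under 0.05. Their smallest p values were those of Ppargc1b, which coactivates the oestrogen-related receptors, at -0.25 (SE 0.16) and Ncoa7 at 0.22 (SE 0.16). Female mutant 3 held the highest level of Ncoa7, 232 CPM, and without it the log2 fold change was 0.03 for Ncoa7 and -0.15 for Ppargc1b.

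Chaperones and co-chaperones of steroid receptors stood mostly above 0, with 9 of 10 above it, a median of 0.16 and 10 of 10 above 0 without female mutant 3, where the median was 0.10. With library totals 8 of 10 were above 0, and the median was 0.06. Stip1, the HSP70 and HSP90 organising protein, averaged 213 ± 30.8 CPM in mutants and 179 ± 14.5 CPM in wild types (SD, n = 6 each), a log2 fold change of 0.24 (SE 0.10) with an unadjusted p = 0.032 and an adjusted p = 0.950 in edgeR's test. The constitutive HSP70 gene Hspa8 was at 0.16 (SE 0.08). In females the median of the 10 was 0.31, and 0.20 without female mutant 3; in males it was 0.02 with 12 libraries. Summed over the list, female mutant 3 had 7329 CPM, the other mutants 5023 to 5934 CPM and the wild types 4696 to 5288 CPM. The part of that library's GC gradient and mitochondrial share in this result was not tested.

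Targets of the lipid-sensing receptors lay on both sides of 0. Of 12 liver X receptor targets, 5 were above and 7 below 0, with a median of -0.10, and without female mutant 3 they divided 6 to 6 with a median of 0.02. Abca1, a cholesterol efflux pump, stood at 48.5 ± 6.70 CPM in mutants and 56.9 ± 3.48 CPM in wild types (SD, n = 6 each), a log2 fold change of -0.22 (SE 0.09, unadjusted p = 0.028 and adjusted p = 0.950 in edgeR's test). Srebf1, a regulator of fatty acid synthesis, was at -0.34 (SE 0.20), and at -0.20 without female mutant 3. Of the 17 fatty acid receptor targets 15 were tested, with 6 above and 9 below 0, and with 11 above and 4 below without female mutant 3. Pdk4, a kinase that restrains glucose oxidation and is also a target of oestrogen-related receptors, had 13.4 ± 2.46 CPM in mutants and 10.9 ± 1.26 CPM in wild types (SD, n = 6 each), a log2 fold change of 0.27 (SE 0.11, unadjusted p = 0.028 and adjusted p = 0.950 in edgeR's test), and Acadl, an enzyme of fatty acid oxidation, was at 0.17 (SE 0.09). The 14 targets of oestrogen-related receptors divided 7 to 7 with and without female mutant 3, and 2 above to 12 below 0 with library totals. Mfn2, which fuses mitochondria, was at -0.15 (SE 0.12), and at -0.04 without female mutant 3.

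Of the 12 retinoic acid targets 10 were tested, with 2 above and 8 below 0 and a median of -0.13, and with 3 of 11 above 0 and a median of -0.06 without female mutant 3. Rarb is one of them. Crabp1, which binds retinoic acid in the cytoplasm, was at 0.708 ± 0.307 CPM in mutants and 1.21 ± 0.318 CPM in wild types (SD, n = 6 each), a log2 fold change of -0.79 (SE 0.33, unadjusted p = 0.031 and adjusted p = 0.950 in edgeR's test). Of 16 glucocorticoid and mineralocorticoid targets 6 were above and 10 below 0, against 10 above and 6 below without female mutant 3 and 3 above and 13 below with library totals, with Sgk1, a kinase that steroid hormones induce, at -0.17 (SE 0.09) and Errfi1, an inhibitor of the epidermal growth factor receptor, at 0.16 (SE 0.09). Among the enzymes that make or break down ligands, 7 of 10 were tested, with 3 above and 4 below 0. Hsd11b1, which regenerates active glucocorticoid, was at 18.2 ± 5.14 CPM in mutants and 14.7 ± 1.46 CPM in wild types (SD, n = 6 each), a log2 fold change of 0.32 (SE 0.15, unadjusted p = 0.046 and adjusted p = 0.950 in edgeR's test). Akr1c14, a steroid dehydrogenase, was at -0.34 (SE 0.19).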

How the data were processed

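RNA sequencing was applied to the cortex of 12 mice. The authors deposited raw counts, whole numbers for every gene in every library. They trimmed reads with Trimmomatic 0.36, mapped them with HISAT2 2.1.0 onto GRCm38.p6 and used HTSeq 0.11 for counting, with Cufflinks also named, per the submitters' processing notes. Neither the strand setting nor the gene annotation is stated in the sources used. Members were found through GENCODE M21, which matched 54165 of 54232 gene identifiers; 67 did not match and took no more than 0.0297% of the counts in any library.

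The filterByExpr function of edgeR 4.0.16 (R 4.3.3) kept 18016 genes, given the 4 groups. After TMM scaling, quasi-likelihood tests used genotype plus sex for the comparison over both sexes, and a mean for each group for the comparisons within a sex and the interaction. Benjamini-Hochberg adjustment covered all genes tested, with calls at 0.05. Standard errors are the log2 fold change divided by the square root of the F statistic. Log2 CPM used a prior count of 2; TPM used merged exon lengths. The procedure was tested on simulated data.

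The members and lists were chosen with earlier results of these data known. Library values are given for members with an unadjusted p under 0.05 in any of the 5 comparisons, with or without female mutant 3, for the 5 of highest TPM and for Rarb and Rxrg; of each pathway list, the 2 genes of smallest p are named, except 1 gene that is not reported here. Alternatives were DESeq2 1.42.0, limma-voom (limma 3.58.1), RLE or library-total scaling, no filter, 1 CPM in 6 libraries, the striatal list as a covariate, each sex alone, the other factor left out and each library left out. After the data were seen, the GC gradient as a covariate was added, as was the striatal covariate without female mutant 3.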

Additional observations from a re-analysis of the deposited data

Results flagged for a closer look

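Of the 29 tested receptor genes, several had 1 library far from the other 5 of its genotype, by the gap to the nearest one as a share of the whole range; chance flags about 1 in 20 groups of this kind. Among mutants that library was female mutant 3 in each tested gene found, and it also had the fewest counts and the highest mitochondrial share. Over all tested genes, it lay below all 11 other libraries in 46.1% and above all of them in 33.2%. The share of all genes flagged by this rule is not given, so the flags describe the library and not the receptors. Female mutant 3 was the highest in CPM for Pgr at 71.2 CPM, Rorb at 128 CPM, Nr3c1 at 205 CPM and Nr2e1 at 29.4 CPM. These values depend on the scaling, in which its TMM factor was 0.690. In TPM it was the lowest library for Nr3c1, at 46.8 TPM against 73.8 to 93.1 TPM in the others. It was also the lowest in TPM for Pgr, at 14.6 TPM against 15.2 to 21.1 TPM. For Rorb and Nr2e1 its TPM lay within the range of the others. In CPM, female mutant 3 was the lowest for Nr1h2 at 5.03 CPM, Nr2c2 at 147 CPM, Nr6a1 at 3.48 CPM, Esrra at 1.55 CPM, Rarg at 2.32 CPM, Rxra at 16.2 CPM, Nr2f6 at 2.71 CPM and Esr1 at 0.774 CPM. Among wild types the library far from the others was female wild type 2, highest for Esrrb at 3.54 CPM, and otherwise male wild type 8, highest for Rorb at 80.6 CPM and Nr2c1 at 15.6 CPM and lowest for Rxrb at 22.0 CPM and Esrra at 16.9 CPM.

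Nr2f6, the orphan receptor EAR2, was lower in each female mutant than in each female wild type, and higher in each male mutant than in each male wild type. The nearest pairs were 8.33 and 8.55 CPM in females and 9.63 and 9.60 CPM in males. How many of all tested genes had this pattern is not given, so it is a description of Nr2f6 only. Nr2f6 stood at 8.33, 2.71 and 8.03 CPM in female mutants, against 8.55, 9.70 and 8.61 CPM in female wild types, and at 9.92, 9.63 and 10.1 CPM in male mutants, against 7.22, 9.60 and 9.05 CPM in male wild types. The interaction, females minus males, was -0.52 on the log2 scale (SE 0.33) and was not called (adjusted p = 0.562 in edgeR's quasi-likelihood test). The level in female mutant 3 rested on 7 counts. Without that library, Nr2f6 was not among the 6 members with an unadjusted p under 0.05 for the interaction in edgeR's test. Its transcript GC content, 67.3%, was the highest of the tested members, and the GC gradient separated the same groups in the same directions. The part of that gradient in Nr2f6 was not tested.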

How the results depend on the processing

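No paired analysis was possible because no animal number occurs in 2 groups. The 22 named results (a member in a comparison) were those with an unadjusted p under 0.05 in edgeR's test, with or without female mutant 3. For them, 517 alternative values were computed, of which 512 kept the direction, 5 reversed and 0 were called. Because they were chosen by p in these same libraries, these counts are no test of their direction. Of all 29 tested members, 7 reversed over both sexes without female mutant 3. Pgr over both sexes, a log2 fold change of -0.04, was 0.084 with the striatal covariate, and with each library left out it ran from -0.203 without female mutant 3 to 0.0214 without male mutant 10, with 0.005 without female mutant 6 and 0.003 without male mutant 27 also reversed. The Rxrb interaction, at -0.79, was 0.095 with the GC covariate and without female mutant 3; the cause was not tested. Members called were 0 in every comparison and setting run. Genes called over both sexes, 1 in the main test, were 29 by DESeq2, 53 by DESeq2 without female mutant 3, 0 with library totals or the striatal covariate, 2 with the GC covariate, 4 with it and without female mutant 3, and 0 to 2 with each library left out. In females, against 0, they were 6 and 15 by DESeq2 with and without that library, 2 with no filter, and 0 in every fit that left out a library. In males, against 0, they were 4 and 16 by DESeq2, 1 with the GC covariate, and 0 to 1 with each library left out; for the interaction, against 0, 4 and 4 by DESeq2, 1 with no filter, and 0 to 1; for sex, against 7, 12 and 13 by DESeq2, and 7 to 8.

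Members at an unadjusted p under 0.05 over both sexes, 3 in the main test (3.96% of all genes), were 7 with the GC covariate (9.54%), 5 with it and without female mutant 3 (11.6%), 2 with the striatal covariate (3.89%), 2 with that and without female mutant 3 (5.43%), and 3 to 5 with each library left out (2.81% to 7.46%). In females, against 2 (11.8%), they were 5 (14.4%) and 4 (8.28%) by DESeq2 with and without female mutant 3. They were 4 with no filter (8.43%), with the GC covariate (6.89%), or with the striatal covariate and without female mutant 3 (10.6%). With each library left out they were 2 to 7 (4.48% to 20.1%). In males, against 2 (2.78%), they were 1 by DESeq2 (2.68%), no filter (2.55%), the 1 CPM filter (2.33%), or the GC covariate without female mutant 3 (5.78%). They were 0 with library totals (2.24%) or the striatal covariate (1.51%), and 5 with male libraries alone (6.83%) or the GC covariate (6.66%). With each library left out they were 0 to 5 (1.76% to 8.43%). For the interaction, against 2 (7.67%), they were 4 (9.6%) and 6 (9.6%) by DESeq2 with and without female mutant 3. They were 4 (4.07%) and 7 (9.72%) with the striatal covariate, with and without that library, and 1 with the GC covariate without it (2.77%). With each library left out they were 0 to 6 (2.89% to 16.2%). For sex, against 0 (1.77%), they were 1 by limma-voom (1.81%) or no filter (2.31%), and 0 to 2 with each library left out (1.28% to 4.65%). Over the alternatives, the share of all genes at that p ran from 3.89% to 20.1% in females, 1.51% to 8.43% in males, 2.77% to 16.2% for the interaction and 1.04% to 4.65% for sex. With each library left out, r with the striatal markers was 0.937 to 0.980 for Rarb and 0.956 to 0.978 for Rxrg. Library totals moved the median of all genes to -0.21 in females, -0.24 for the interaction and -0.11 for sex, against -0.03, -0.03 and -0.02 under TMM. Fits that left out a library kept 2 in its group, with a spread pooled over the groups. Depth limits Vdr, Esr2 and the 9 untested members most.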
